A study of Arabidopsis thaliana and Cardamine hirsuta and Capsella rubella with 102 samples.

Results

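Mock-treated seedlings of Arabidopsis thaliana accession Col-0 were compared at 24 h and at 1 h after treatment, a comparison in which no elicitor was present and the time after treatment was the variable. The series holds 102 RNA-seq libraries, 18 of them from Col-0, and the libraries compared here are the 6 labelled Col-0 mock at 1 h (3 replicates) and at 24 h (3 replicates). They were chosen by these labels and not by any measured value. All seedlings were wild type and 12 days old at treatment. They had been moved from plates at 11 days into liquid medium containing sucrose, with 1.6 ml in each well, and rested there for a day before 800 µl of MS medium was added as mock. The flg22 groups, to which the mock groups are the control, received a solution of the bacterial flagellin peptide flg22 to 1 µM. Each library came from 3 pooled wells of whole seedlings, so that root and shoot were measured together. Replicates 1, 2, and 3 came from independent experiments, in each of which the mock and flg22 treatments were run together.

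A seedling kept in a small volume of medium can draw down nutrients, respires, and passes through a day and a night. Levels of nutrients, sugar, and oxygen in the wells are not part of these data. Plant cells respond to such conditions through well-described gene programs. Low sulfate raises genes for sulfate uptake and reduction, low phosphate raises phosphatases and genes that replace phospholipids with galactolipids, and low energy raises the sugar starvation genes that sucrose represses. The circadian clock is a loop of genes expressed in turn through the day, with *CCA1* and *LHY* around dawn, *PRR9*, *PRR7*, and *PRR5* through the day, and *ELF4* towards dusk. The lists of genes used below follow these programs, together with lists for hormones, defense, growth, and tissue markers. The lists and their members were chosen with earlier results of these data known. The shares of called members are therefore descriptions and no independent support for a program.

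In the 6 libraries the counts assigned to genes totalled 21813097 to 32047998, and 10 counts corresponded to 0.295 to 0.468 CPM (counts scaled to library size). Records of reads with several matching positions in the genome made up 9.99% to 31.2% of all records in 5 of these libraries. Their share was 42.8% in mock 24 h replicate 2, and such reads were not counted for any gene. That library also had the lowest total. Its log2 CPM correlated at 0.938 with replicate 3 and at 0.960 with replicate 1 of the same group. Replicates 1 and 3 at 24 h correlated at 0.976, and pairs of 1 h libraries at 0.968 to 0.978. Calls of named genes that were lost without mock 24 h replicate 2 are given beside the gene. Both organ types were seen at both times. The 17 tested root markers summed to 1882 to 2244 CPM at 1 h and 2174 to 2658 CPM at 24 h, the 27 tested leaf photosynthesis genes to 86806 to 106659 CPM at 1 h and 39561 to 59100 CPM at 24 h, and no marker of either list was at 0 in any of these libraries. Of the 17 root markers, 1 (5.88%) was called higher, near the 5.84% of all genes, and 16 were not called. Their log2 fold changes ran from −0.75 to 1.59, with a median of 0.63. The marker called was *COBL9*, with 18, 34, and 55 counts at 1 h and 116, 67, and 162 counts at 24 h. The part of a shift between root and shoot RNA in the results below was not tested. In whole seedlings, fewer cells of a type and less RNA per cell cannot be told apart. *COBL9* was not called without replicate 1, without replicate 2, without replicate 3, and without the replicate block (adjusted *P* = 0.065, 0.018, 0.036, and 0.026).

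Of 20295 genes tested, 1186 (5.84%) were called higher and 686 (3.38%) lower at 24 h than at 1 h, at an adjusted *P* below 0.01 and a change of over 2-fold in the quasi-likelihood test of edgeR with the replicate number as a block. Without the block the numbers were 963 and 567. The median log2 fold change over all genes tested was 0.016. Of the genes called higher, 1183 moved the same way in all 3 replicate pairs, and in 1151 of them the 24 h values lay wholly above the 1 h values. Of the genes called lower, 685 moved the same way in all pairs and 675 did not overlap. These genes were chosen by a call on the same libraries, so the counts describe them and are no separate support for the call. The share of all tested genes that moved or separated in this way was not counted. The rises were larger than the falls. A change of over 8-fold was seen for 106 genes called higher and 15 called lower, and a change of over 16-fold for 33 and 2. Without replicate 1 the test called 696 genes higher and 428 lower. Common reference genes stayed below the threshold, with ACTIN2 (*ACT2*) at 746, 814, and 769 CPM at 1 h and 718, 702, and 663 CPM at 24 h, and *UBQ10* at 1042, 1251, and 956 CPM and 1097, 1154, and 1168 CPM.

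**Figure D1:**
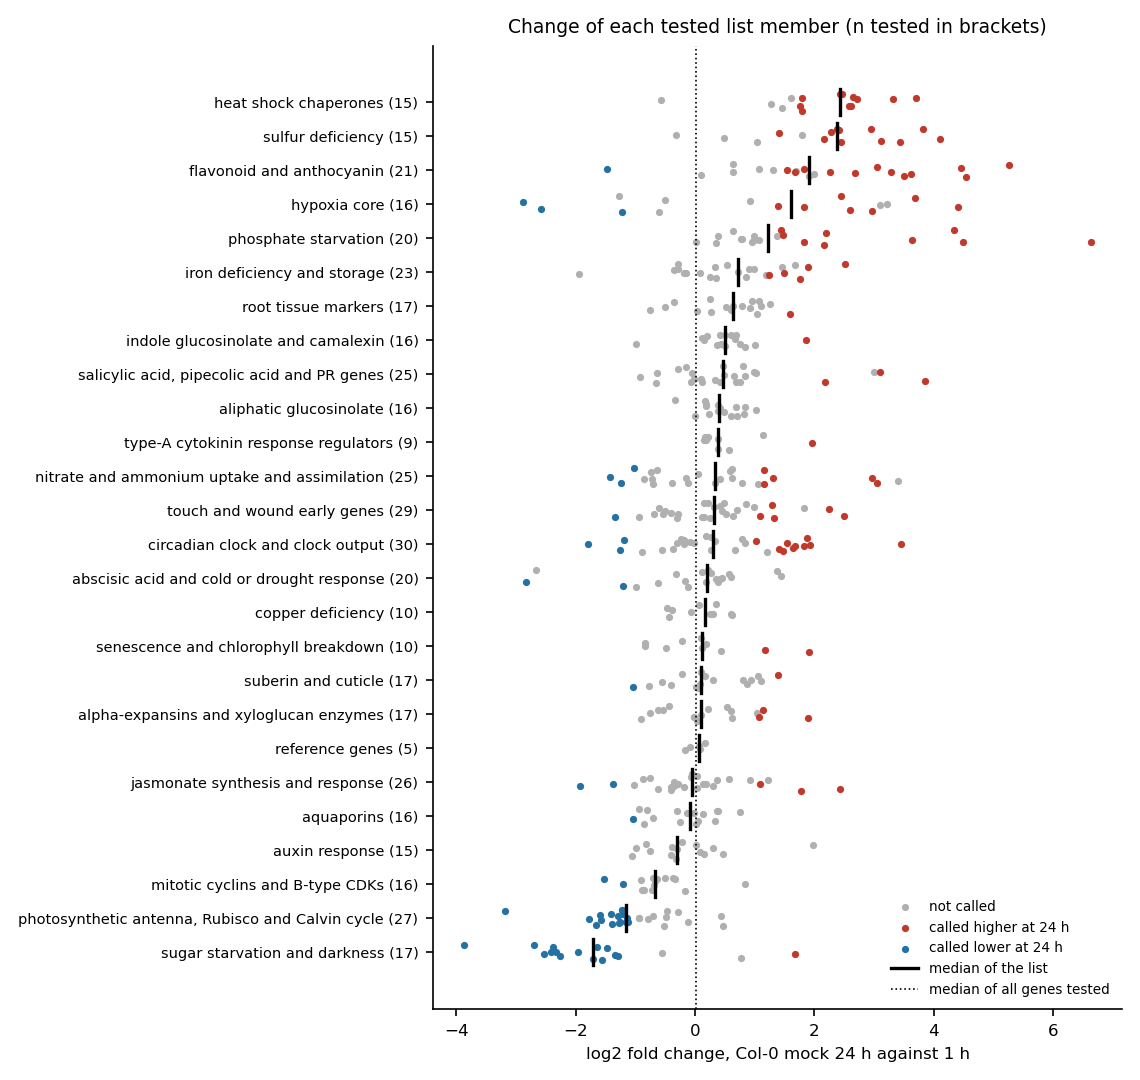
Log2 fold change between 24 h and 1 h in Col-0 mock (x axis) for every tested member of 26 gene lists (y axis, number tested in brackets). Each point is a gene, red where called higher at 24 h, blue where called lower, and gray where not called, the bar is the median of the list, and the dotted line is the median over all genes tested (0.016). The heat shock and sulfur lists have the highest medians (2.44 and 2.38) and the sugar starvation list has the lowest (−1.71).

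Genes of sulfate assimilation and the sulfur deficiency response rose together. Of 15 tested members of the list, 11 were called higher and 0 lower, against 5.84% of all genes called higher, and the median log2 fold change was 2.38. The 3 adenosine 5′-phosphosulfate reductases, which carry out the reductive step of sulfate assimilation, all rose. *APR3* (AT4G21990) was at 43.2, 32.9, and 42.8 CPM at 1 h and 441, 264, and 345 CPM at 24 h, an 8.83-fold rise (log2 fold change 3.11, SE 0.21, adjusted *P* = 5.5e-08). *APR2* went from 55.2, 52.2, and 73.8 CPM to 397, 244, and 352 CPM (log2 fold change 2.41, SE 0.20, adjusted *P* = 3.3e-07), and *APR1* from 27.9, 17.96, and 21.03 CPM to 149, 84.3, and 117 CPM (log2 fold change 2.38, SE 0.23, adjusted *P* = 1.2e-06). In none of the 3 genes did the groups overlap, and replicate 2 was the lowest at both times in each of them. The 4 members of the RESPONSE TO LOW SULFUR family also rose. *LSU2* increased from 3.87, 1.58, and 3.58 CPM to 52.0, 31.3, and 41.4 CPM (log2 fold change 3.81, SE 0.33, adjusted *P* = 3.9e-07), and *LSU1*, *LSU3*, and *LSU4* had log2 fold changes of 2.44, 3.44, and 2.28 from mean levels of at most 1.14 CPM. *LSU1* was not called without replicate 3 and without the replicate block (adjusted *P* = 0.018 and 0.049). *LSU4* was not called without replicate 1 (adjusted *P* = 0.019).

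The remaining genes called in this list act on glucosinolate and glutathione turnover and on uptake. SULFUR DEFICIENCY INDUCED1 (*SDI1*), which in A. thaliana represses the synthesis of sulfur-rich glucosinolates, was at 0.891, 0.0406, and 1.098 CPM at 1 h and 10.4, 4.39998, and 20.4 CPM at 24 h (log2 fold change 4.103, SE 0.56, adjusted *P* = 3.8e-05), and its paralog *SDI2* rose 4.48-fold. *GGCT2;1*, which degrades glutathione, rose from a mean of 2.72 to 21.1 CPM (log2 fold change 2.95, SE 0.39, adjusted *P* = 2.5e-05). The root sulfate transporter gene *SULTR1;2* was at 46.002, 41.7, and 57.7 CPM at 1 h and 129.6, 140.0, and 109 CPM at 24 h (log2 fold change 1.402, SE 0.30, adjusted *P* = 0.0020). The vascular transporter gene *SULTR2;1* was not called, with 38.95, 40.1, and 47.7 CPM and 31.5, 35.7, and 34.9 CPM. *SULTR4;2*, which exports sulfate from the vacuole, was at 10.7, 7.84, and 7.44 CPM and 12.6, 12.9, and 10.998 CPM (log2 fold change 0.50, adjusted *P* = 0.031). At 9 h the means of *APR1*, *APR2*, and *APR3* were 71.996, 136, and 208 CPM, which lay between those at 1 h and 24 h. Against 9 h, a comparison that shares the 24 h libraries, 6 of the 15 members were called higher at 24 h and 0 lower, where 5.79% of all genes were called higher and 5.39% lower. *SULTR1;2* was not called without replicate 2, without mock 24 h replicate 2, and without the replicate block (adjusted *P* = 0.033, 0.017, and 0.016).

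The aliphatic glucosinolate genes, whose products hold sulfur, were not called in either direction, with 0 of 16 tested and a median log2 fold change of 0.40. *CYP83A1*, an enzyme of their core pathway, was at 69.9, 103, and 56.9 CPM at 1 h and 119, 106, and 92.2 CPM at 24 h, with overlapping groups. Of 16 genes for indole glucosinolates and the phytoalexin camalexin, 1 (6.25%) was called higher, near the 5.84% of all genes. It was *PAD3*, which encodes the enzyme of the last step of camalexin synthesis, at 4.84, 9.06, and 2.27 CPM and 19.5, 14.7, and 18.7 CPM (log2 fold change 1.86, SE 0.35, adjusted *P* = 6.1e-04). *PAD3* was not called without replicate 1, without replicate 3, and without the replicate block (adjusted *P* = 0.014, 0.017, and 0.021).

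Phosphate starvation genes formed another group with rises and no falls. Of 20 tested members, 9 were called higher and 0 lower, against 5.84% and 3.38% of all genes, with a median log2 fold change of 1.22. Purple acid phosphatases release phosphate from organic compounds, and *PAP17* (AT3G17790) had the largest change in this class. It was at 2.90, 3.01, and 3.65 CPM at 1 h and 79.6, 70.2, and 62.8 CPM at 24 h, a 22.2-fold rise (log2 fold change 4.49, SE 0.37, adjusted *P* = 2.9e-07). *PAP10*, a phosphatase of the root surface, went from 19.8, 28.1, and 28.8 CPM to 122, 98.9, and 139.7 CPM (log2 fold change 2.203, SE 0.23, adjusted *P* = 3.1e-06). The groups stayed apart in each of these genes. *SPX1*, which binds the phosphate starvation regulator PHR1 when phosphate is plentiful and is itself raised by starvation, went from 4.69, 6.26, and 5.10 CPM to 65.8, 83.5, and 51.3 CPM (log2 fold change 3.64, SE 0.40, adjusted *P* = 4.3e-06). *PS2*, a phosphatase gene of the starvation response, had 6, 4, and 29 counts at 1 h and 296, 209, and 315 counts at 24 h (log2 fold change 4.34, SE 0.50, adjusted *P* = 8.0e-06).

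Genes of uptake and membrane lipid exchange were also among those called. The transporter gene *PHT1;4* was at 10.7, 9.39, and 11.5 CPM at 1 h and 56.3, 43.1, and 43.7 CPM at 24 h (log2 fold change 2.16, SE 0.24, adjusted *P* = 5.9e-06), and *PHF1*, needed for such transporters to leave the endoplasmic reticulum, rose 2.75-fold (log2 fold change 1.47, SE 0.16, adjusted *P* = 5.3e-06). *PHT1;1*, whose sequence is close to that of its tandem neighbors so that part of its reads may not have been counted, was at 18.4, 21.05, and 27.01 CPM and 36.7, 39.1, and 54.6 CPM and just missed the 2-fold threshold (log2 fold change 0.96, adjusted *P* = 0.0011). *MGD3*, a galactolipid synthase, had 0, 0, and 5 counts at 1 h and 159, 220, and 143 counts at 24 h, and with so few counts at 1 h its fold change is not well determined. The phospholipid-degrading enzymes *GDPD1* and *PLDZ2* had means of 15.2 ± 2.51 and 1.62 ± 0.277 CPM (SD, *n* = 3) at 1 h and 53.8 ± 13.6 and 4.42 ± 0.889 CPM at 24 h. The ubiquitin-conjugating enzyme gene *PHO2*, which acts against phosphate uptake, was not called, at 151, 110.3, and 116 CPM and 156, 135, and 191 CPM. *SQD1*, which acts in sulfolipid synthesis, was not called either, with a mean of 84.7 CPM at 1 h and 88.0 CPM at 24 h. *PLDZ2* was not called without replicate 1, without replicate 2, and without replicate 3 (adjusted *P* = 0.019, 0.011, and 0.026).

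The regulator PHR1 is known to bind the P1BS motif, and 2 promoters from the genes called higher are printed because they hold it. The letters GNATATNC, which read the same on both strands, were searched in the 250 bases upstream of each annotated gene start in the RefSeq annotation of TAIR10.1. They were found for 5 of the 20 list members (25%) and for 5.44% of the 20171 tested genes with such a window. The share was also above that of all genes in the sugar starvation list, with 4 of 17 members (23.5%), and in the sulfur list, with 3 of 15 (20%). The 2 sequences run 5′ to 3′ towards the gene start, with the motif in capitals. *GDPD1* (chr3:350011-350260, minus strand) holds 2 matches, which begin 127 and 63 bases before the start, and *PS2* (chr1:27466349-27466598, minus strand) holds 1, which begins 217 bases before it.
GDPD1: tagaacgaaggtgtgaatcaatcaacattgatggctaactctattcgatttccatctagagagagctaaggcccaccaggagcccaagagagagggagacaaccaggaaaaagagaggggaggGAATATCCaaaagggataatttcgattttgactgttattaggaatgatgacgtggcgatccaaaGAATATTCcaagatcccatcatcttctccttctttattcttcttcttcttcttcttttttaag
PS2: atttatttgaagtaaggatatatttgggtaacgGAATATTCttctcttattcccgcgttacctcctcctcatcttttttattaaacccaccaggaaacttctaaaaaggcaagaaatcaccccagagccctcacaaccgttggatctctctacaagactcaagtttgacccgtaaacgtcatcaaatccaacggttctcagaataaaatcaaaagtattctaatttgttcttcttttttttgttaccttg
*PAP17* and *SPX1*, whose rises were larger than that of *GDPD1*, had no match in this window.

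**Figure D2:**
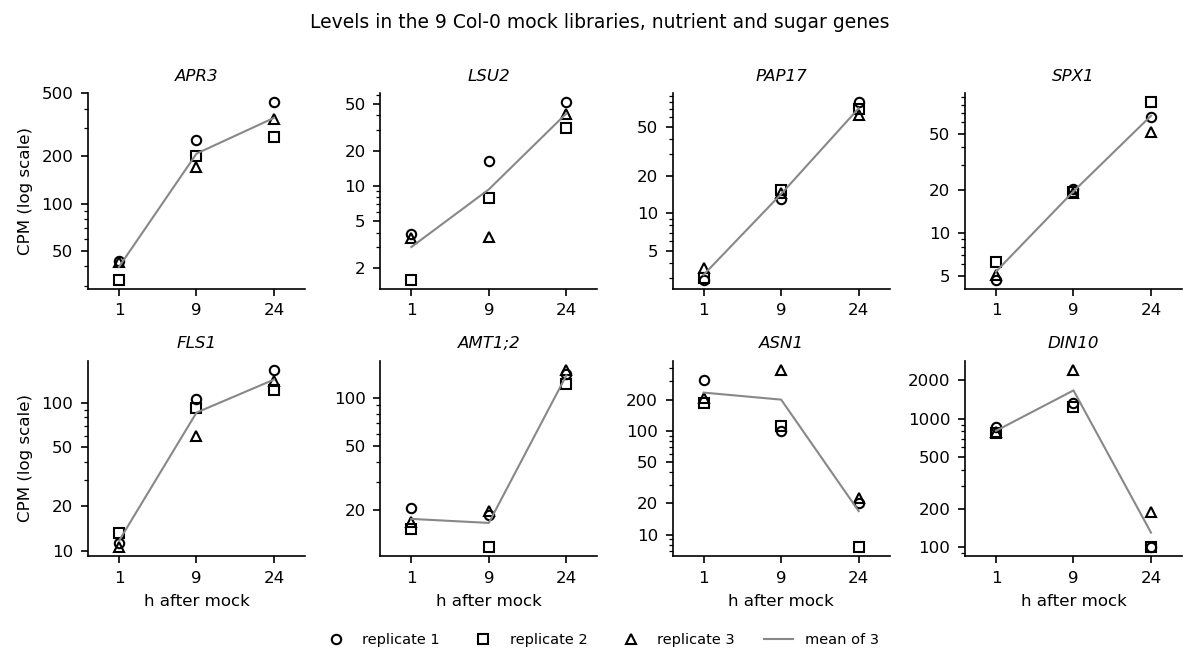
Level (CPM, log axis, a separate scale in each panel) of 8 genes in Col-0 mock libraries at the 3 times (x axis, hours). Symbols are the 3 replicates and the line joins their means. *APR3*, *LSU2*, *PAP17*, *SPX1*, and *FLS1* have higher means at 9 h than at 1 h and higher ones again at 24 h, *AMT1;2* is high at 24 h alone among these times, and *ASN1* and *DIN10* are low at 24 h.

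Early enzyme genes of the flavonoid pathway rose, as did part of its regulator genes. Of 21 tested members, 12 were called higher and 1 lower, against 5.84% and 3.38% of all genes, with a median log2 fold change of 1.91. Among the enzymes, chalcone synthase (*CHS*) is the entry to the pathway and was at 134, 136, and 103 CPM at 1 h and 405, 345, and 444 CPM at 24 h (log2 fold change 1.68, SE 0.22, adjusted *P* = 2.1e-05). Chalcone isomerase (*CHI*) went from 14.1, 14.1, and 9.70 CPM to 117, 113, and 83.3 CPM (log2 fold change 3.05, SE 0.25, adjusted *P* = 2.5e-07). Flavanone 3-hydroxylase (*F3H*) rose 6.35-fold (log2 fold change 2.67, SE 0.26, adjusted *P* = 1.3e-06), and flavonol synthase (*FLS1*, AT5G08640) went from 11.3, 13.2, and 10.6 CPM to 168, 122, and 141 CPM, a 12.2-fold rise (log2 fold change 3.62, SE 0.23, adjusted *P* = 4.3e-08). These 4 enzymes had no overlap between the groups. The late enzymes, which lead to anthocyanin, were less uniform. *DFR* was at 10.6, 12.2, and 6.20 CPM at 1 h and 16.7, 21.1, and 8.61 CPM at 24 h (log2 fold change 0.64, adjusted *P* = 0.50), and *LDOX* at 9.22, 7.96, and 4.53 CPM and 16.4, 22.1, and 14.2 CPM (log2 fold change 1.303, adjusted *P* = 0.15). Neither was called, and the groups of *DFR* overlapped while those of *LDOX* did not. The list members *TT19*, *UF3GT*, and *5MAT* were not called either. *LDOX* was called in the fit of the 6 compared libraries alone (log2 fold change 1.29, adjusted *P* = 0.0012). In that fit, 17 named genes lost their call and 2 gained one. The anthocyanin glucosyltransferase gene *UGT75C1* was at 1.36, 1.38, and 0.885 CPM at 1 h and 11.9, 19.5, and 6.26 CPM at 24 h and was called (log2 fold change 3.29, SE 0.76, adjusted *P* = 0.0034). *TT7* (flavonoid 3′-hydroxylase) rose by a log2 fold change of 1.55. *UGT75C1* was not called without replicate 1, without replicate 2, and without mock 24 h replicate 2 (adjusted *P* = 0.042, 0.038, and 0.014). *TT7* was not called without replicate 1, without replicate 2, and without the replicate block (adjusted *P* = 0.085, 0.032, and 0.012).

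Among the transcription factors, the anthocyanin activators *PAP1* (MYB75) and *PAP2* (MYB90) went from near absence to clear expression. *PAP1* had 3, 6, and 10 counts at 1 h and 375, 212, and 237 counts at 24 h (log2 fold change 5.26, SE 0.78, adjusted *P* = 7.9e-05). *PAP2* was at 0.465, 0.731, and 0.921 CPM at 1 h and 17.38, 9.92, and 20.4 CPM at 24 h (log2 fold change 4.45, SE 0.49, adjusted *P* = 5.0e-06). The flavonol activators rose as well, *MYB111* from a mean of 0.730 to 8.31 CPM (log2 fold change 3.49, adjusted *P* = 5.8e-05) and *MYB12* from 1.09 to 5.59 CPM (log2 fold change 2.27, adjusted *P* = 1.1e-04), and *MYB11* had 2, 0, and 3 counts at 1 h against 63, 43, and 31 at 24 h. *HY5*, the light-signaling factor that acts upstream of many of these genes, was at 10.6, 9.39, and 10.6 CPM and 50.6, 27.01, and 33.1 CPM (log2 fold change 1.83, SE 0.22, adjusted *P* = 1.1e-05). The gene called lower was *MYBL2*, a repressor of anthocyanin synthesis, at 49.1, 45.1, and 60.3 CPM at 1 h and 22.2, 17.2, and 16.3 CPM at 24 h (log2 fold change −1.48, SE 0.18, adjusted *P* = 1.4e-05). The regulator genes *TT8*, *GL3*, and *EGL3* of this list were not called. *MYB12* was not called without replicate 1 (adjusted *P* = 0.011). *MYB11* was not called without replicate 1 (adjusted *P* = 0.028).

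Beyond the lists, *4CL3*, a 4-coumarate:CoA ligase that feeds the flavonoid branch, was among the 12 largest rises. It was at 6.70, 6.18, and 4.496 CPM at 1 h and 116, 101, and 87.3 CPM at 24 h (log2 fold change 4.14, SE 0.20, adjusted *P* = 3.0e-09). The glucosyltransferase genes *UGT84A1*, *UGT73C1*, and *DOGT1* (UGT73C5) were in the same class, with means of 0.365, 2.14, and 5.33 CPM at 1 h and 8.31, 38.6, and 80.5 CPM at 24 h. *UGT73C1* and *DOGT1* are close tandem copies, so reads they share may be missing from both. *GPT2*, a plastid glucose 6-phosphate transporter, was at 2.32, 9.22, and 14.6 CPM and 162, 112, and 291 CPM (log2 fold change 4.36, SE 0.66, adjusted *P* = 9.4e-05), with a 1 h level that differed severalfold between replicates. The B-box factor gene *BBX32* was at 1.16, 0.284, and 0.566 CPM and 13.5, 9.83, and 12.02 CPM (log2 fold change 4.15, SE 0.39, adjusted *P* = 9.0e-07).

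Genes that sucrose represses and darkness or starvation raises were lower at 24 h. Of 17 tested members, 14 were called lower and 1 higher, against 3.38% of all genes called lower, and the median log2 fold change was −1.71. *ASN1* (DARK INDUCIBLE6, AT3G47340), an asparagine synthetase, was the gene with the largest fall among those named by size. It was at 309, 186, and 207 CPM at 1 h and 20.4, 7.58, and 22.7 CPM at 24 h, 13.9-fold lower (log2 fold change −3.86, SE 0.50, adjusted *P* = 2.5e-05). *DIN10*, a raffinose synthase-like gene, fell from 854, 768, and 790.3 CPM to 101, 100.1, and 189 CPM (log2 fold change −2.69, SE 0.27, adjusted *P* = 1.8e-06). At 9 h, *ASN1* and *DIN10* had means of 200.2 and 1658 CPM. *KMD1*, an F-box gene, fell from 87.5, 71.8, and 66.5 CPM to 12.1, 12.3, and 14.4 CPM (log2 fold change −2.53, SE 0.19, adjusted *P* = 9.7e-08) and its relative *KMD4* from 134, 118, and 112 CPM to 41.2, 40.3, and 35.5 CPM (log2 fold change −1.64, SE 0.13, adjusted *P* = 2.2e-07). *AKINBETA1*, a subunit of the energy-sensing SnRK1 kinase, went from 96.2, 121, and 93.9 CPM to 20.2, 25.2, and 19.6 CPM (log2 fold change −2.26, SE 0.19, adjusted *P* = 2.6e-07). In none of these genes did the groups overlap.

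The class II trehalose phosphate synthase genes did not all move the same way. *TPS8*, *TPS9*, *TPS10*, and *TPS11* fell, with *TPS11* at 92.6, 76.5, and 84.7 CPM at 1 h and 17.97, 12.7, and 20.6 CPM at 24 h (log2 fold change −2.33, SE 0.21, adjusted *P* = 5.8e-07) and log2 fold changes of −1.95, −1.56, and −1.48 for the others. *TPS5*, the member called higher, was at 11.5, 10.4, and 13.2 CPM and 31.1, 25.6, and 60.2 CPM (log2 fold change 1.68, SE 0.25, adjusted *P* = 7.7e-05). Genes of branched-chain amino acid breakdown, which starved cells use for energy, fell too. *MCCA*, a subunit of methylcrotonyl-CoA carboxylase, fell from 138, 142, and 101 CPM to 24.1, 22.05, and 27.2 CPM (log2 fold change −2.38, SE 0.30, adjusted *P* = 1.6e-05), its partner *MCCB* fell by 1.29 on the log2 scale, and *BCAT2* fell by 1.33. *SEN1*, a senescence and darkness marker, fell from 155, 182, and 117 CPM to 33.3, 20.1, and 29.9 CPM (log2 fold change −2.41, SE 0.33, adjusted *P* = 4.1e-05), and the galactosidase gene *BGAL4* fell from a mean of 92.2 to 29.4 CPM. *IVD*, an enzyme of the same route, was at 67.6, 66.2, and 65.7 CPM and 46.8, 38.8, and 50.7 CPM and was not called (log2 fold change −0.56, adjusted *P* = 0.065). *DIN2*, a glucosidase gene, was not called, with means of 3.64 and 5.62 CPM. Against 9 h, 15 of the 17 members were called lower at 24 h, where 5.39% of all genes were called lower. *BCAT2* was not called without replicate 1 and without replicate 2 (adjusted *P* = 0.025 and 0.018). *BGAL4* was not called without replicate 1 and without replicate 2 (adjusted *P* = 0.035 and 0.031).

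The letters TATCCA are a known element of sugar-repressed promoters and are printed for 2 of the genes that fell. They were searched on both strands in the same 250 bases, where the reverse strand reads TGGATA and contains the GATA letters of the I-box core. A match was found for 5 of 17 list members (29.4%) and for 14.2% of all tested genes. In lists that rose, it was found for 25% of phosphate starvation, 20% of heat shock, and 13.3% of sulfur members. Among called members the share was 33.3% in both the sugar starvation list (5 of 15) and the phosphate starvation list (3 of 9). Over all called genes, a match was found for 24.6% of the 686 called lower and 13.1% of the 1186 called higher. *ASN1* (chr3:17441432-17441681, minus strand) and *TPS11* (chr2:8108648-8108897, plus strand) have 1 match each, which begins 101 and 141 bases before the gene start.
ASN1: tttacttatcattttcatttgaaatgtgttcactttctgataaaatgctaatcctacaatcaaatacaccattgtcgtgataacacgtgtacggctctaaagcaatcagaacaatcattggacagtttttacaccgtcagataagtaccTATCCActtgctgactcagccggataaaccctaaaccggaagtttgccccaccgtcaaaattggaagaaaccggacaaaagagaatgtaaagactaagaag
TPS11: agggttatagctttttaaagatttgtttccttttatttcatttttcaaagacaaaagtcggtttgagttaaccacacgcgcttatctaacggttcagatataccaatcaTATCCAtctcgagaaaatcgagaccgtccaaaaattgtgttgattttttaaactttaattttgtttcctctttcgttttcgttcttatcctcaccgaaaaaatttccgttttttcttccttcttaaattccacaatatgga
*DIN10* and *KMD4*, which fell as well, had no match in this window.

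Other large falls included *BT2*, a BTB and TAZ domain gene known to be repressed by sugar and raised by nitrate. It was at 190.2, 139, and 209 CPM at 1 h and 22.1, 21.5, and 23.7 CPM at 24 h (log2 fold change −2.997, SE 0.20, adjusted *P* = 5.0e-08). *STP14*, a sugar transporter gene, went from 18.1, 11.99, and 12.1 CPM to 1.65, 0.609, and 2.39 CPM (log2 fold change −3.18, SE 0.36, adjusted *P* = 6.3e-06), and the *HSP70* cochaperone gene *Fes1B* from 29.1, 39.05, and 28.2 CPM to 2.18, 4.03, and 1.49 CPM (log2 fold change −3.71, SE 0.25, adjusted *P* = 4.8e-08). Each was below its 1 h range in all 3 libraries at 24 h. *GASA6*, a gibberellin-regulated peptide gene, fell from 188, 186, and 242 CPM to 21.5, 37.2, and 22.1 CPM (log2 fold change −2.95, SE 0.23, adjusted *P* = 1.7e-07), and *WRI4*, a regulator of fatty acid synthesis for wax, from 47.7, 43.6, and 31.7 CPM to 4.99, 7.54, and 4.51 CPM (log2 fold change −2.89, SE 0.22, adjusted *P* = 1.6e-07). *UGT85A4*, *CYP71B22*, and *P1R3* had means of 35.96, 7.63, and 3.67 CPM at 1 h and 4.99, 1.05, and 0.451 CPM at 24 h. *P1R3* was not called without replicate 3 (adjusted *P* = 0.018).

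Genes of the light-harvesting antenna were lower at 24 h, while 0 genes of carbon fixation were called. Of 27 tested members of the list, 16 were called lower and 0 higher, against 3.38% and 5.84% of all genes. The median log2 fold change was −1.15. All 16 encode chlorophyll *a*/*b*-binding proteins of photosystem I (LHCA) or photosystem II (LHCB). *LHCA4* was at 5916, 5645, and 5568 CPM at 1 h and 1870.4, 2575, and 2039 CPM at 24 h (log2 fold change −1.41, SE 0.15, adjusted *P* = 4.3e-06). *LHCA3* went from 3034, 2988, and 2879 CPM to 1154, 1383, and 1202 CPM (log2 fold change −1.25, SE 0.14, adjusted *P* = 6.2e-06), and *LHCB4.2* from 1940.2, 1915, and 1591 CPM to 488, 696, and 558 CPM (log2 fold change −1.66, SE 0.18, adjusted *P* = 5.2e-06). *LHCB1.4* fell most, from 2523, 2342, and 1509.7 CPM to 162, 530.0, and 105 CPM, 8.003-fold lower (log2 fold change −3.18, SE 0.37, adjusted *P* = 7.0e-06). Replicate 2 was the highest of the 24 h libraries in each of these 4 genes, although no groups overlapped. Without replicate 1, 10 antenna genes were called lower, and without mock 24 h replicate 2, 18. Copies such as *LHCB1.1*, *LHCB1.2*, and *LHCB1.3* are nearly identical, so their counts leave out the reads they share. The nuclear Rubisco gene *RBCS1A* was at 13783, 17492, and 13266 CPM at 1 h and 10938, 12949.6, and 8346 CPM at 24 h (log2 fold change −0.47, adjusted *P* = 0.047), and Rubisco activase (*RCA*) at 4222, 4261, and 5114 CPM and 3239, 2371, and 4047 CPM (log2 fold change −0.52, adjusted *P* = 0.033). Neither was called. *LHCB1.1* was not called without replicate 1, without replicate 2, and without the replicate block (adjusted *P* = 0.069, 0.031, and 0.054). *LHCB1.3* was not called without replicate 1 and without the replicate block (adjusted *P* = 0.023 and 0.011).

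The antenna genes were lower still at 9 h. Of the 27 list members, 11 were called higher and 0 lower at 24 h than at 9 h, against 5.79% and 5.39% of all genes. *LHCB4.2* had a mean of 89.5 CPM, *LHCA4* of 586 CPM, and *LHCB2.3* of 5.09 CPM at 9 h. The 24 h level was therefore between those at 9 h and 1 h for these 3 genes. The letters TATCCA, described above, were found upstream of 11 of the 27 list members (40.7%), against 14.2% of all tested genes. *LHCB5* (chr4:6407757-6408006, plus strand), with matches on both strands at 32 and 18 bases before the gene start, and *LHCB1.3* (chr1:10477635-10477884, plus strand), with 1 match at 193 bases, are printed as examples with the matches in capitals. *LHCB2.3* was not called without replicate 1, without replicate 3, and without the replicate block (adjusted *P* = 0.041, 0.016, and 0.011).
LHCB5: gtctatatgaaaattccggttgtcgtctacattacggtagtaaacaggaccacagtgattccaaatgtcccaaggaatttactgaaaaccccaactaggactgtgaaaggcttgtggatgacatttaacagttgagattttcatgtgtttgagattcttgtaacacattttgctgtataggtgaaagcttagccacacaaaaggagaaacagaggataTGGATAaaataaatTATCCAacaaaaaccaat
LHCB1.3: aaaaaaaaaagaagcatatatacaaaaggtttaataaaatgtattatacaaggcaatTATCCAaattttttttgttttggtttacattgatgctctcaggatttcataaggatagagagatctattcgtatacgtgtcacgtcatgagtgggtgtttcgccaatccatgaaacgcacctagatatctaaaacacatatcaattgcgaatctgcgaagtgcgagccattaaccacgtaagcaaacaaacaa
*LHCB1.4*, the antenna gene with the largest fall, and *LHCA4* had no match in this window.

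Clock genes differed between 24 h and 1 h, times that lie slightly less than a full day apart. Counted from the same hour of start, the 24 h harvest falls slightly earlier in the day than the 1 h harvest. The part of this offset in the differences was not tested. The hour of day at which treatment began is not given in the sources used here. Of 30 tested members, 10 (33.3%) were called higher and 3 (10%) lower, against 5.84% and 3.38% of all genes. The median log2 fold change was 0.30. The dawn genes were higher at 24 h. *LHY* (AT1G01060) was at 87.4, 84.8, and 76.4 CPM at 1 h and 406, 308, and 252 CPM at 24 h (log2 fold change 1.93, SE 0.21, adjusted *P* = 4.1e-06), and *CCA1* at 81.5, 59.2, and 77.3 CPM and 296, 208, and 199.8 CPM (log2 fold change 1.67, SE 0.23, adjusted *P* = 3.8e-05). *RVE8*, a related factor that activates evening genes, went from 30.2, 28.4, and 26.4 CPM to 122, 113, and 71.5 CPM (log2 fold change 1.82, SE 0.22, adjusted *P* = 1.2e-05), and *RVE1*, which links the clock to auxin, had a log2 fold change of 1.48. These genes were nearly absent at 9 h, *LHY* with a mean of 0.662 CPM and *CCA1* with 0.584 CPM. Without replicate 1, 6 of the 30 members were called higher.

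The later genes of the loop moved in both directions. *PRR7*, a repressor of *CCA1* and *LHY* expressed in the morning, fell from 178, 153, and 156 CPM to 76.4, 61.0, and 76.3 CPM (log2 fold change −1.19, SE 0.18, adjusted *P* = 9.1e-05), while *PRR9*, the earliest of its family in the day, was at 11.1, 4.39, and 8.43 CPM at 1 h and 39.1, 12.97, and 36.8 CPM at 24 h (log2 fold change 1.87, SE 0.33, adjusted *P* = 3.6e-04). *CHE*, a repressor of *CCA1*, fell from a mean of 53.2 to 22.8 CPM (log2 fold change −1.25, adjusted *P* = 9.4e-05). The growth-promoting factor gene *PIF4* fell from 70.3, 56.5, and 54.8 CPM to 16.5, 17.37, and 18.8 CPM (log2 fold change −1.79, SE 0.20, adjusted *P* = 4.5e-06). The evening genes *GI* and *ELF4* were also higher at 24 h than at 1 h. *GI* was at 19.4, 24.9, and 16.4 CPM and 63.2, 41.1, and 60.8 CPM (log2 fold change 1.402, SE 0.18, adjusted *P* = 2.6e-05). *ELF4* had 9, 3, and 16 counts at 1 h and 89, 82, and 161 counts at 24 h, with a mean of 87.3 CPM at 9 h, so that its difference between 1 h and 24 h is small beside its level at 9 h. *PRR5* and *PRR3* had the same order of levels, with means of 0.946 and 0.814 CPM at 1 h, 33.6 and 37.6 CPM at 9 h, and 2.79 and 2.54 CPM at 24 h. *LNK2*, a coactivator for *RVE8*, was not called between 1 h and 24 h, at 692, 547, and 613 CPM and 621, 519, and 380.0 CPM, although its mean at 9 h was 11.7 CPM. *CCR1*, an RNA-binding clock output, was at 293, 255, and 256 CPM and 333, 328, and 305 CPM (log2 fold change 0.26, adjusted *P* = 0.22). Against 9 h, 14 of the 30 members were called higher and 9 lower at 24 h, where the shares over all genes were 5.79% and 5.39%. *PRR9*, *PRR5*, and *PRR3* were not called without replicate 1 (adjusted *P* = 0.024, 0.019, and 0.0101). *PRR5* was not called without replicate 2 (adjusted *P* = 0.046). *PRR3* was not called without replicate 3 (adjusted *P* = 0.015). *PRR5* was not called without mock 24 h replicate 2 (adjusted *P* = 0.021). *PRR9* was not called without the replicate block (adjusted *P* = 0.018).

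**Figure D3:**
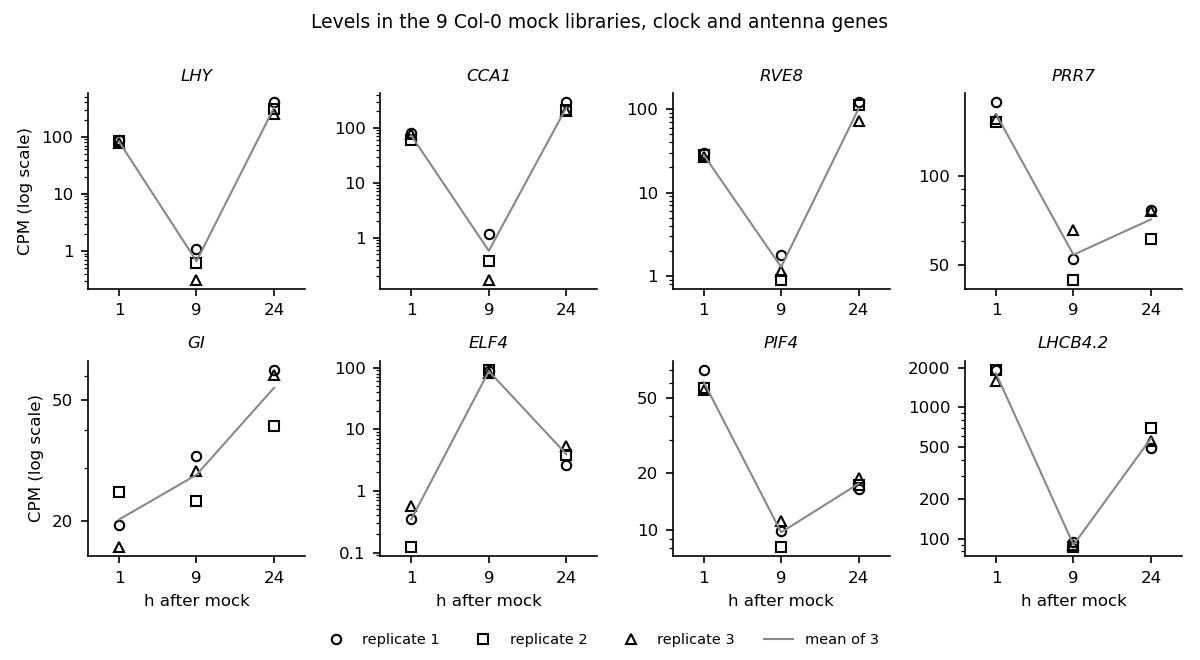
Level (CPM, log axis, a separate scale in each panel) of 7 clock genes and the antenna gene *LHCB4.2* in Col-0 mock libraries at the 3 times (x axis, hours). Symbols are the 3 replicates and the line joins their means. *LHY*, *CCA1*, *RVE8*, and *LHCB4.2* have their lowest mean at 9 h and *ELF4* its highest, and *LHY*, *CCA1*, *RVE8*, and *GI* are above their 1 h levels at 24 h while *PRR7*, *PIF4*, and *LHCB4.2* are below.

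Heat shock genes had the highest median of the lists, with a wide spread between replicates. Of 15 tested members, 11 were called higher and 0 lower, against 5.84% and 3.38% of all genes, and the median log2 fold change was 2.44. Small heat shock proteins hold unfolding proteins until the larger chaperones act on them. *HSP17.6II* was at 10.1, 6.75, and 18.1 CPM at 1 h and 63.5, 33.5, and 149 CPM at 24 h (log2 fold change 2.71, SE 0.52, adjusted *P* = 7.7e-04), and *HSP23.6*, a mitochondrial member, at 7.01, 4.63, and 8.53 CPM and 28.7, 16.2, and 112 CPM (log2 fold change 2.65, SE 0.48, adjusted *P* = 4.9e-04). *HSP22* had 0.348, 0.366, and 0.991 CPM and 1.53, 3.18, and 29.4 CPM (log2 fold change 3.71, SE 0.74, adjusted *P* = 0.0011). Replicate 3 was the highest of the 24 h libraries in these 3 genes, and in *HSP22* it was several times higher than the other two. The transcription factor gene *HSFA2*, which sustains the heat response, was at 33.8, 12.5, and 30.1 CPM at 1 h and 99.1, 30.9, and 145 CPM at 24 h (log2 fold change 1.79, SE 0.41, adjusted *P* = 0.0034), and replicate 2 at 24 h lay within the 1 h range. *BIP3*, an endoplasmic reticulum chaperone gene raised by unfolded proteins, was at 1.63, 2.48, and 1.81 CPM and 4.99, 15.6, and 15.3 CPM (log2 fold change 2.58, SE 0.51, adjusted *P* = 9.5e-04). *HSP101* and *HSP70*, the disaggregase and a major cytosolic chaperone, were not called, with 67.1, 40.2, and 51.8 and 438, 333, and 343 CPM at 1 h and 169, 57.2, and 276 and 803, 404, and 1892 CPM at 24 h. *HSP90.1*, *HSP70B*, *HSP17.6A*, and *HSP21* rose by log2 fold changes of 1.798, 1.76, 2.62, and 3.32. Without replicate 3, 5 of the 15 members were called higher, and without the replicate block 5, while 11 were called without mock 24 h replicate 2. *HSP101* was called without mock 24 h replicate 2 (log2 fold change 1.75, adjusted *P* = 0.0079), under DESeq2 (log2 fold change 1.48, adjusted *P* = 0.0098), without the filter on low counts (log2 fold change 1.45, adjusted *P* = 0.0079), and in the fit of the 6 compared libraries alone (log2 fold change 1.41, adjusted *P* = 0.0053). At 9 h the means of *HSP17.6II*, *HSP23.6*, and *HSFA2* were 10.02, 9.42, and 25.2 CPM. Of the 15 members, 13 were called higher and 0 lower at 24 h than at 9 h, against 5.79% and 5.39% of all genes. *HSFA2*, *HSP90.1*, and *HSP17.6A* were not called without replicate 1 (adjusted *P* = 0.020, 0.026, and 0.032). *HSFA2*, *BIP3*, and *HSP90.1* were not called without replicate 2 (adjusted *P* = 0.016, 0.016, and 0.024). *HSP22*, *HSP90.1*, *HSP70B*, and *HSP21* were not called without replicate 3 (adjusted *P* = 0.060, 0.023, 0.039, and 0.047). *HSP90.1* was not called without mock 24 h replicate 2 (adjusted *P* = 0.011). *HSP22*, *HSFA2*, *HSP90.1*, *HSP70B*, and *HSP21* were not called without the replicate block (adjusted *P* = 0.016, 0.038, 0.021, 0.015, and 0.017).

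Heat shock factors are known to bind repeats of GAA and its complement TTC, and 3 promoters with such repeats are printed. The letters GAANNTTC and TTCNNGAA, each the same on both strands, were found in the 250 bases upstream of 5 of the 15 list members (33.3%), all of them called higher, and of 15.8% of all tested genes. They were found for 8 of the 20 phosphate starvation members (40%), so the share was not highest in the heat shock list. *HSFA2* (chr2:11135374-11135623, plus strand), *HSP17.4* (chr3:16984868-16985117, minus strand), and *HSP17.6C* (chr1:19980049-19980298, plus strand) hold 3, 4, and 2 matches, some of which overlap each other, and the capitals mark them. *HSP17.4* was not called without replicate 3 (adjusted *P* = 0.016). *HSP17.6C* was not called without replicate 3 and without the replicate block (adjusted *P* = 0.011 and 0.014).
HSFA2: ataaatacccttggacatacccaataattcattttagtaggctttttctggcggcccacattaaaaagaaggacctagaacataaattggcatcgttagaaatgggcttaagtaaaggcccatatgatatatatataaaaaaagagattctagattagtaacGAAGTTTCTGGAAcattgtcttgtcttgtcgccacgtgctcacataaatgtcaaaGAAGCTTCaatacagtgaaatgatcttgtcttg
HSP17.4: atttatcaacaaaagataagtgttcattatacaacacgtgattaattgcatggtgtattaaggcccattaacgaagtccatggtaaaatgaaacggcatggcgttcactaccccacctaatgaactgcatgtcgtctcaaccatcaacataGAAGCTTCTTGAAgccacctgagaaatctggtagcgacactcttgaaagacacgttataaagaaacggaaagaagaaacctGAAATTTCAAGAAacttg
HSP17.6C: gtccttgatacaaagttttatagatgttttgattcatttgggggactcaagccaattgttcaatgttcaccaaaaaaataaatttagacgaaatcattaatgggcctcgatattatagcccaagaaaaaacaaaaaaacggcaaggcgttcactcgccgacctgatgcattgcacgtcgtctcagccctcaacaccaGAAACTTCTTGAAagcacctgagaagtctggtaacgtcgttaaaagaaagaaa
*HSP17.4* was at 8.91, 10.8, and 13.6 CPM at 1 h and 41.6, 34.3, and 136 CPM at 24 h (log2 fold change 2.46, SE 0.51, adjusted *P* = 0.0015), and *HSP17.6C* at 6.82, 5.85, and 12.1 CPM and 37.2, 18.6, and 97.7 CPM (log2 fold change 2.44, SE 0.51, adjusted *P* = 0.0016). *HSP22* and *HSP17.6II* had no match in this window.

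**Figure D4:**
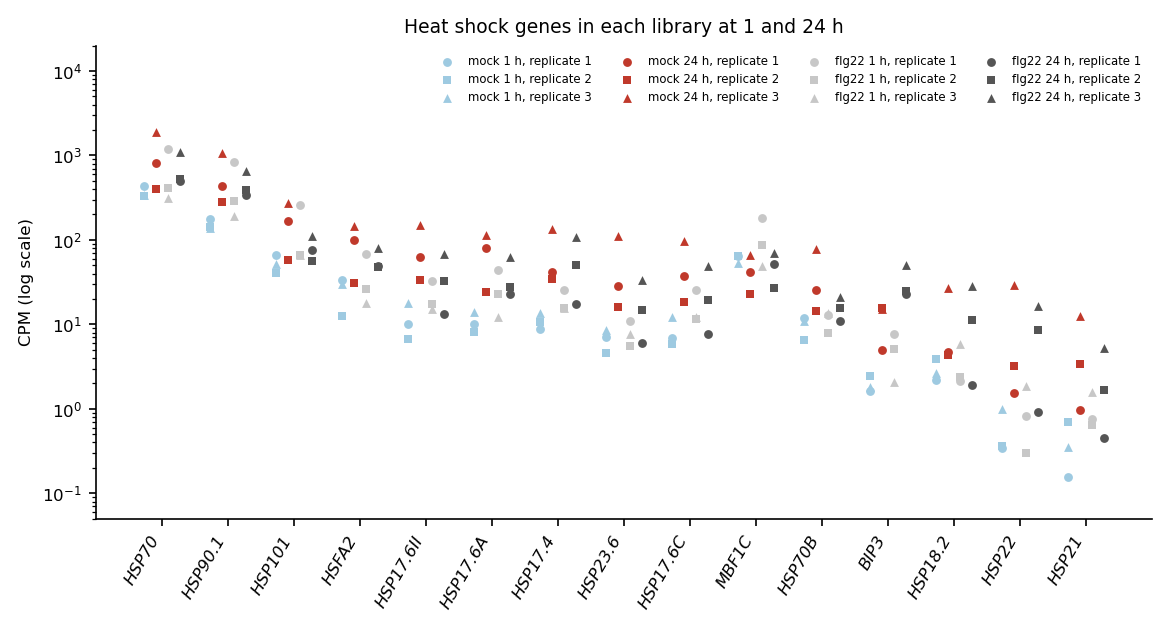
Level (CPM, log axis) of the 15 tested heat shock genes in each Col-0 library at 1 and 24 h after mock or flg22, with a symbol for each replicate. Replicate 3 of mock 24 h is the highest of its group in most genes, for example 29.4 CPM for *HSP22* against 1.53 and 3.18 CPM, and replicate 3 of flg22 24 h is likewise high.

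Genes of the hypoxia response moved in both directions. Of 16 tested members, 7 (43.75%) were called higher and 3 (18.75%) lower, against 5.84% and 3.38% of all genes. The median log2 fold change was 1.602. *ADH1* (AT1G77120), alcohol dehydrogenase, was at 9.72, 10.5, and 30.5 CPM at 1 h and 324, 185, and 538 CPM at 24 h, a 20.7-fold rise (log2 fold change 4.404, SE 0.56, adjusted *P* = 2.0e-05). The sucrose synthase gene *SUS1* went from 17.97, 16.9, and 17.8 CPM to 58.0, 46.2, and 87.9 CPM (log2 fold change 1.82, SE 0.20, adjusted *P* = 5.2e-06), the hemoglobin gene *HB1* from 22.1, 34.7, and 36.4 CPM to 259.8, 121, and 218 CPM (log2 fold change 2.59, SE 0.34, adjusted *P* = 2.7e-05), and pyruvate decarboxylase *PDC2* from 13.6, 15.8, and 12.1 CPM to 37.4, 25.6, and 48.1 CPM (log2 fold change 1.38, SE 0.18, adjusted *P* = 1.9e-05). *PDC1* was at 1.78, 1.95, and 1.77 CPM and 28.4, 7.68, and 20.5 CPM and was not called (log2 fold change 3.21, adjusted *P* = 0.013). The regulator gene *LBD41* fell from 19.4, 36.2, and 26.5 CPM to 5.02, 4.21, and 1.89 CPM (log2 fold change −2.88, SE 0.54, adjusted *P* = 6.4e-04). *HRA1*, a repressor of the response, fell from a mean of 10.8 to 1.82 CPM. Of the ethylene response factor genes of this response, *HRE1* fell (log2 fold change −1.23, adjusted *P* = 2.5e-04) and *HRE2* rose (log2 fold change 2.97, adjusted *P* = 2.4e-04). *LBD41* and *HRA1* were highest at 9 h among the mock times, with means of 234 and 143 CPM, as was *PDC2* with 114 CPM, whereas *ADH1* was at 42.9 CPM at 9 h. *SAD6* and *SUS4*, also called higher, had log2 fold changes of 3.68 and 2.45. *SAD6* and *SUS4* were not called without replicate 1 (adjusted *P* = 0.034 and 0.012). *LBD41*, *HRA1*, and *SAD6* were not called without replicate 2 (adjusted *P* = 0.011, 0.055, and 0.018). *HRA1* was not called without replicate 3 (adjusted *P* = 0.024). *HRA1* and *SAD6* were not called without mock 24 h replicate 2 (adjusted *P* = 0.017 and 0.018). *SAD6* and *SUS4* were not called without the replicate block (adjusted *P* = 0.013 and 0.014).

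Nitrogen genes moved in both directions. Of 25 tested members, 5 (20%) were called higher and 3 (12%) lower, against 5.84% and 3.38% of all genes. Their median log2 fold change was 0.34. The ammonium transporter gene *AMT1;2* had the largest well-measured rise. It was at 20.6, 15.3, and 16.9 CPM at 1 h and 142, 123, and 150.4 CPM at 24 h (log2 fold change 2.97, SE 0.20, adjusted *P* = 4.8e-08), with a mean of 16.6 CPM at 9 h. *AMT1;1*, another ammonium transporter gene, went from 36.6, 32.9, and 41.2 CPM to 69.8, 69.1, and 112 CPM (log2 fold change 1.16, SE 0.16, adjusted *P* = 3.7e-05), and the nitrate transporter and sensor gene *NRT1.1* from 67.2, 64.9, and 76.4 CPM to 175, 113, and 256 CPM (log2 fold change 1.32, SE 0.20, adjusted *P* = 1.1e-04). *NRT2.5*, a transporter gene of nitrogen-starved plants, had 3, 4, and 6 counts at 1 h and 30, 48, and 33 counts at 24 h. *RFNR2*, a root ferredoxin reductase gene, rose 2.23-fold (log2 fold change 1.16, SE 0.16, adjusted *P* = 4.5e-05). The nitrate-induced genes *NIA1* (nitrate reductase), *LBD37*, and *HRS1* fell, *NIA1* from 228, 205, and 367 CPM to 146, 37.8, and 137 CPM (log2 fold change −1.42, SE 0.27, adjusted *P* = 7.5e-04) and *LBD37*, a repressor of nitrate genes, from 112, 125, and 117 CPM to 60.7, 48.9, and 63.8 CPM (log2 fold change −1.03, SE 0.15, adjusted *P* = 6.1e-05). *NIA2* and *GLN1;2*, the second nitrate reductase and a glutamine synthetase gene, were not called, with means of 565 and 405 CPM at 1 h and 384 and 623 CPM at 24 h. *NRT2.5* and *HRS1* were not called without replicate 1 (adjusted *P* = 0.017 and 0.040). *NRT2.5* and *NIA1* were not called without replicate 2 (adjusted *P* = 0.026 and 0.014). *LBD37* changed by less than 2-fold without replicate 2 (log2 fold change −0.88). *HRS1* was not called without replicate 3 (adjusted *P* = 0.016). *NRT2.5* was not called without mock 24 h replicate 2 (adjusted *P* = 0.012). *LBD37* changed by less than 2-fold without mock 24 h replicate 2 (log2 fold change −0.88). *NIA1* was not called without the replicate block (adjusted *P* = 0.049).

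For iron, 5 of 23 tested members (21.7%) were called higher and 0 lower, against 5.84% and 3.38% of all genes. Their median log2 fold change was 0.73. *OPT3*, a phloem iron transporter gene, went from 44.3, 40.8, and 59.3 CPM to 182, 106, and 123 CPM (log2 fold change 1.49, SE 0.25, adjusted *P* = 2.3e-04). The root iron transporter gene *IRT1* varied severalfold between experiments, with 13.5, 31.8, and 3.93 CPM at 1 h and 42.4, 93.6, and 21.2 CPM at 24 h. Each replicate was higher at 24 h than its own 1 h partner although the groups overlapped (log2 fold change 1.89, SE 0.50, adjusted *P* = 0.0081). *CYP82C4*, a gene of iron-starved roots, overlapped in the same way (log2 fold change 2.52, adjusted *P* = 0.0093). *NAS4* (nicotianamine synthase) and *BTSL1*, a regulator of the iron response, rose by log2 fold changes of 1.77 and 1.23. The ferritin gene *FER1*, a marker of iron excess, was at 141, 375, and 173 CPM and 144, 149, and 315 CPM and was not called, and neither was the iron-sensing ligase gene *BTS* (log2 fold change 0.86, adjusted *P* = 1.0e-03), which was called without replicate 3 (log2 fold change 1.06, adjusted *P* = 0.0029). Of 10 copper deficiency genes, 0 were called in either direction, and the superoxide dismutase genes *CSD1* and *CSD2* were at means of 183 and 153 CPM at 1 h and 275 and 186 CPM at 24 h. *OPT3*, *IRT1*, *CYP82C4*, *NAS4*, and *BTSL1* were not called without replicate 1 (adjusted *P* = 0.018, 0.026, 0.041, 0.083, and 0.014). *IRT1* and *NAS4* were not called without replicate 2 (adjusted *P* = 0.054 and 0.015). *CYP82C4* was not called without replicate 3 (adjusted *P* = 0.051). *IRT1* and *CYP82C4* were not called without mock 24 h replicate 2 (adjusted *P* = 0.025 and 0.016). *IRT1*, *CYP82C4*, and *NAS4* were not called without the replicate block (adjusted *P* = 0.23, 0.21, and 0.013).

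Early touch and wound genes respond within minutes to handling, and medium was added to the wells of both groups. Of 29 tested members, 5 (17.2%) were called higher and 1 (3.45%) lower at 24 h, against 5.84% and 3.38% of all genes. The median log2 fold change was 0.32. The gene called lower was *TCH3*, a calmodulin-like gene named for its response to touch, at 299.9, 272, and 222 CPM at 1 h and 108, 69.4, and 143 CPM at 24 h (log2 fold change −1.35, SE 0.19, adjusted *P* = 6.0e-05). The stress zinc finger gene *ZAT12* was higher, at 5.96, 2.15, and 1.98 CPM and 26.3, 10.4, and 19.1 CPM (log2 fold change 2.503, SE 0.26, adjusted *P* = 3.1e-06). *WRKY40*, a repressor of defense, was at 10.2, 9.71, and 5.42 CPM and 19.4, 17.7, and 25.1 CPM (log2 fold change 1.29, SE 0.22, adjusted *P* = 2.8e-04). *ZAT10* overlapped between the groups (log2 fold change 1.09, adjusted *P* = 0.0011). *PUB22*, a ubiquitin ligase gene, and *CML37*, a calmodulin-like gene, were the other members called higher (log2 fold change 1.32, adjusted *P* = 0.0011 and log2 fold change 2.25, adjusted *P* = 0.0041). *MYB44* and *TCH4* were not called, with means of 66.0 and 42.8 CPM at 1 h and 88.8 and 48.7 CPM at 24 h. *ZAT10*, *PUB22*, and *CML37* were not called without replicate 2 (adjusted *P* = 0.021, 0.017, and 0.059). *ZAT10* and *PUB22* were not called without replicate 3 (adjusted *P* = 0.020 and 0.013). *WRKY40* changed by less than 2-fold without replicate 3 (log2 fold change 0.89). *CML37* was not called without mock 24 h replicate 2 (adjusted *P* = 0.013). *PUB22* changed by less than 2-fold without mock 24 h replicate 2 (log2 fold change 0.90). *ZAT10* and *PUB22* were not called without the replicate block (adjusted *P* = 0.025 and 0.014).

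Most members of the hormone and defense lists were not called. For jasmonate, a wound and defense hormone, 3 of 26 tested members (11.5%) were called higher and 2 (7.69%) lower, against 5.84% and 3.38% of all genes, with a median log2 fold change of −0.052. The defensin gene *PDF1.2* was at 3.098, 4.31, and 0.496 CPM at 1 h and 12.04, 22.6, and 6.33 CPM at 24 h (log2 fold change 2.43, SE 0.42, adjusted *P* = 3.5e-04) and its regulator gene *ORA59* at 22.5, 28.4, and 15.3 CPM and 8.85, 9.88, and 6.63 CPM (log2 fold change −1.37, SE 0.18, adjusted *P* = 2.6e-05), so that the defensin rose where the regulator fell. The lipoxygenase genes *LOX3* and *LOX4* were called higher and *CYP94C1*, which inactivates the hormone, lower, with means of 4.42, 1.19, and 7.56 CPM at 1 h and 9.83, 3.98, and 2.12 CPM at 24 h. The synthesis genes *AOS* and *LOX2* were not called, with 127, 131, and 99.5 and 94.5, 94.8, and 85.4 CPM at 1 h and 82.2, 99.4, and 95.7 and 58.7, 78.1, and 159 CPM at 24 h. *LOX3*, *LOX4*, and *CYP94C1* were not called without replicate 1 (adjusted *P* = 0.077, 0.013, and 0.011). *CYP94C1* was not called without replicate 2 (adjusted *P* = 0.079). *LOX3* was not called without replicate 3 (adjusted *P* = 0.11). *CYP94C1* was not called without mock 24 h replicate 2 (adjusted *P* = 0.024). *PDF1.2*, *LOX3*, *LOX4*, and *CYP94C1* were not called without the replicate block (adjusted *P* = 0.037, 0.017, 0.0101, and 0.024).

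Among 25 tested genes of salicylic acid, pipecolic acid, and pathogenesis-related proteins, 3 (12.0%) were called higher and 0 lower. Over all genes these shares were 5.84% and 3.38%. *FRK1*, a receptor kinase gene widely used as a marker of pattern-triggered immunity, rose from 2.48, 1.46, and 1.73 CPM to 16.6, 37.9, and 22.03 CPM in these mock libraries (log2 fold change 3.86, SE 0.43, adjusted *P* = 5.4e-06). *GRXC9*, a glutaredoxin gene, and *ALD1*, which starts pipecolic acid synthesis, were low, with 30, 27, and 7 and 3, 1, and 0 counts at 1 h and 146, 58, and 103 and 15, 18, and 6 counts at 24 h. *EDS1* and *ACD6*, a core regulator and a modulator of salicylic acid defense, had overlapping groups, with means of 29.6 and 23.63 CPM at 1 h and 28.5 and 30.6 CPM at 24 h. *GRXC9* was not called without replicate 1, without replicate 3, and without the replicate block (adjusted *P* = 0.019, 0.022, and 0.014). *ALD1* was not called without replicate 1, without replicate 2, without replicate 3, and without mock 24 h replicate 2 (adjusted *P* = 0.048, 0.093, 0.043, and 0.043).

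Of 20 tested abscisic acid and cold or drought genes, 0 were called higher and 2 (10%) lower, against 5.84% and 3.38% of all genes. *RAB18*, a dehydrin gene, was at 15.1, 2.84, and 3.26 CPM at 1 h and 1.18, 0.328, and 1.23 CPM at 24 h (log2 fold change −2.83, SE 0.57, adjusted *P* = 0.0012), with replicate 1 the highest at 1 h. *CYP707A3*, which breaks down abscisic acid, fell from a mean of 8.27 to 3.75 CPM. The cold-regulated genes *COR47* and *ERD10* were not called, at means of 164 and 116 CPM and 150.2 and 131 CPM. For auxin, 0 of 15 tested members were called (median log2 fold change −0.29), with the transporter gene *PIN3* at 152, 131, and 133 CPM and 112, 128, and 101 CPM and the response gene *IAA2* at 83.3, 80.3, and 72.8 CPM and 64.5, 69.7, and 55.8 CPM. For cytokinin, 1 of 9 type-A response regulator genes (11.1%) was called higher, against 5.84% of all genes. It was *ARR3*, with 8, 27, and 37 counts at 1 h and 158, 69, and 85 counts at 24 h. *ARR4* and *ARR8* were not called, with log2 fold changes of 0.38 and 0.23. *RAB18*, *CYP707A3*, and *ARR3* were not called without replicate 1 (adjusted *P* = 0.026, 0.016, and 0.068). *CYP707A3* and *ARR3* were not called without replicate 2 (adjusted *P* = 0.048 and 0.015). *CYP707A3* was not called without replicate 3 (adjusted *P* = 0.040). *CYP707A3* was not called without mock 24 h replicate 2 (adjusted *P* = 0.029). *CYP707A3* was not called without the replicate block (adjusted *P* = 0.053).

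Most members of the growth lists were not called either. Of 16 tested mitotic cyclin and B-type kinase genes, which mark dividing cells, 2 (12.5%) were called lower and 0 higher, against 3.38% and 5.84% of all genes, and the median log2 fold change was −0.68. *CYCB2;3* fell from 10.5, 8.65, and 12.4 CPM to 4.84, 2.34, and 3.64 CPM (log2 fold change −1.52, SE 0.31, adjusted *P* = 0.0012) and *CYCA2;4* from a mean of 7.77 to 3.43 CPM (log2 fold change −1.197, adjusted *P* = 0.0032). The cytokinesis gene *KNOLLE* and the kinase gene *CDKB2;1* were not called, with log2 fold changes of −0.68 and −0.69. Of 17 genes for expansins and xyloglucan enzymes, which loosen and remodel cell walls, 3 (17.65%) were called higher. *EXPA10* went from 18.04, 18.04, and 13.1 CPM to 78.6, 36.2, and 82.5 CPM (log2 fold change 1.89, SE 0.33, adjusted *P* = 3.3e-04), *EXPA5* rose 2.12-fold, and *XTH18* was at 11.97, 10.8, and 26.1 CPM and 25.3, 38.3, and 36.97 CPM with overlapping groups (log2 fold change 1.14, SE 0.28, adjusted *P* = 0.0051). *XTH4* and *EXPA1* were the most abundant members not called, at means of 297 and 209 CPM at 1 h and 175 and 145 CPM at 24 h. *CYCA2;4*, *EXPA10*, and *XTH18* were not called without replicate 1 (adjusted *P* = 0.021, 0.021, and 0.026). *XTH18* was not called without replicate 2 (adjusted *P* = 0.096). *EXPA5* changed by less than 2-fold without replicate 2 (log2 fold change 0.99). *CYCB2;3* and *CYCA2;4* were not called without replicate 3 (adjusted *P* = 0.030 and 0.070). *CYCA2;4* and *XTH18* were not called without mock 24 h replicate 2 (adjusted *P* = 0.018 and 0.040). *XTH18* was not called without the replicate block (adjusted *P* = 0.044).

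Barrier, water channel, and senescence genes held 5 calls among 43 tested members, 3 higher and 2 lower, where 5.84% of all genes were called higher and 3.38% lower. In the suberin and cuticle list, *ASFT*, which esterifies ferulate into suberin, rose from 4.76, 5.32, and 4.99 CPM to 13.96, 8.94, and 17.42 CPM (log2 fold change 1.38, SE 0.28, adjusted *P* = 0.0011) and *GPAT8*, an acyltransferase of cutin synthesis, fell from 34.9, 33.9, and 33.6 CPM to 19.1, 17.04, and 13.98 CPM (log2 fold change −1.03, SE 0.16, adjusted *P* = 1.1e-04). The wax genes *CER6* and *CER3* had log2 fold changes of −0.55 and 0.11 and were not called. Of 16 aquaporin genes, 1 was called lower. This was *TIP2;1*, a tonoplast channel gene, at 766, 827, and 915 CPM at 1 h and 384, 426, and 399 CPM at 24 h (log2 fold change −1.04, SE 0.17, adjusted *P* = 1.8e-04). *PIP1;2* and *TIP1;2*, the most abundant members not called, were at means of 1077 and 1268 CPM and 1064 and 769.6 CPM. Of 10 senescence genes, *WRKY6* and *SAG13* were called higher, at 9.18, 10.8, and 8.39 and 3.18, 10.4, and 2.48 CPM at 1 h and 19.7, 21.7, and 23.2 and 17.9, 17.7, and 17.8 CPM at 24 h. *SAG21* and *NYC1* were not called, with log2 fold changes of −0.48 and 0.13. *ASFT*, *WRKY6*, and *SAG13* were not called without replicate 1 (adjusted *P* = 0.025, 0.038, and 0.053). *WRKY6* and *SAG13* were not called without replicate 3 (adjusted *P* = 0.028 and 0.038). *GPAT8* and *TIP2;1* changed by less than 2-fold without replicate 3 (log2 fold change −0.93 and −0.98). *WRKY6* was not called without mock 24 h replicate 2 (adjusted *P* = 0.015). *GPAT8* changed by less than 2-fold without mock 24 h replicate 2 (log2 fold change −0.99). *SAG13* was not called without the replicate block (adjusted *P* = 0.043).

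To ask whether the same change with time occurred in the presence of the elicitor, the comparison of 24 h with 1 h was repeated in the 6 Col-0 flg22 libraries, which share none with the mock comparison. In flg22, 1112 genes (5.48%) were called higher and 977 (4.81%) lower. Of the genes called higher, 567 were called in both treatments, 47.8% of the mock list and 51.0% of the flg22 list. Of the genes called lower, 265 were called in both, 38.6% of the mock list and 27.1% of the flg22 list. A further 40 genes called higher in mock were called lower in flg22, and 0 were called lower in mock and higher in flg22. The difference between the changes was tested as an interaction, and it was called higher in flg22 for 132 genes (0.65%) and lower in flg22 for 567 genes (2.79%). Among the genes called higher in mock, 182 (15.3%) had a called difference, and among those called lower 33 (4.81%). Without the replicate block, 32 and 301 differences were called. Because the difference also holds the response to flg22 at 1 h, a gene raised early by flg22 gives a lower value here.

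No member of the sulfur, phosphate, flavonoid, or sugar starvation lists had a called difference. In flg22, 12 of 15 sulfur genes were called higher, 8 of 20 phosphate genes higher, 10 of 21 flavonoid genes higher and 1 lower, and 11 of 17 sugar starvation genes lower and 1 higher. Over all genes in flg22, 5.48% were called higher and 4.81% lower. *ASN1* had a log2 fold change of −3.77 in flg22 and −3.86 in mock, *APR3* of 2.28 and 3.11, and *PAP17* of 3.23 and 4.49. The clock genes gave 10 called higher and 1 lower in flg22, with *LHY* at a log2 fold change of 2.01 against 1.93 in mock. For heat shock genes, 2 of 15 were called higher in flg22 against 11 in mock, with medians of 0.60 and 2.44, but 0 of the 15 differences were called. For the antenna list, 4 of 27 were called lower in flg22 against 16 in mock, with 0 differences called.

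Several listed genes that rose in mock had a called difference. *ZAT12*, *WRKY40*, and *PUB22* of the touch list, *LOX3* and *LOX4* of the jasmonate list, *XTH18*, *ARR3*, *WRKY6*, and the root hair gene *COBL9* all rose in mock and had a lower change in flg22. *LOX4* was at means of 1.19 and 3.98 CPM in mock and 137 and 15.4 CPM in flg22 at 1 h and 24 h (difference −4.85, SE 0.47, adjusted *P* = 1.1e-05). *WRKY40* was at 238, 188, and 178 CPM at 1 h and 113, 91.7, and 108 CPM at 24 h in flg22 (difference −2.24, adjusted *P* = 1.7e-04). The 24 h flg22 levels of *WRKY40* lay below its 1 h flg22 levels in the mean, opposite to mock. *FRK1* was at 165, 70.01, and 83.2 CPM at 1 h and 457, 232, and 215 CPM at 24 h in flg22, with a log2 fold change of 1.51 against 3.86 in mock, and its difference was not called (adjusted *P* = 0.012). Of the 24 most changed genes, *4CL3* had a smaller rise in flg22 (difference −1.22, adjusted *P* = 0.0061), and *GASA6* and *CYP71B22* had smaller falls (differences 2.06 and 1.73, adjusted *P* = 4.4e-04 and 8.7e-04).

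**Figure D5:**
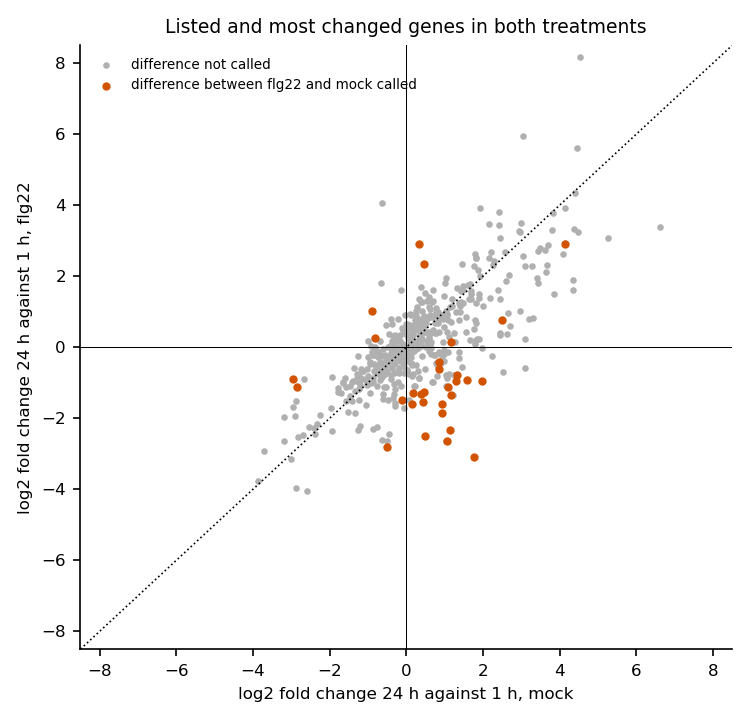
Log2 fold change between 24 h and 1 h in mock (x axis) and in flg22 (y axis) for the 487 listed or most changed genes that were tested. Points are genes, orange where the difference between flg22 and mock was called, and the dotted line marks equal change. Of the 30 orange points most lie below the line, as *LOX4* does at 1.77 in mock and −3.08 in flg22.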

How the data were processed

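The 6 Col-0 mock libraries at 1 h and 24 h were analyzed within all 18 Col-0 libraries of the series, and other accessions and species were not used here. The values are whole-number counts per gene. The authors made these counts before they were deposited, from strand-specific single-end polyA reads aligned with TopHat2 to TAIR10 and assigned with HTSeq 0.6.0, with default settings under which reads of several positions or genes are dropped, so that near-identical genes are undercounted. The submitters' processing notes also name CASAVA 1.8.2 and cutadapt 1.5. Summary rows, 13.7% to 50.0% of the records in the 6 libraries, were left out. Gene symbols and upstream sequences came from the RefSeq annotation of TAIR10.1. Other motifs were searched in the same 250 bases. The SURE core GAGAC was found for 26.7% of sulfur list members and 25.2% of all tested genes. The evening element AAAATATCT was found for 23.3% of clock members, 7.69% of called clock members, and 2.50% of all tested genes. The G-box CACGTG was found for 26.7% of clock members, 5.88% of sugar starvation members, and 7.26% of all tested genes.

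Genes averaging 10 counts or more over the 18 libraries were scaled by TMM and fitted with the edgeR 4.0.16 quasi-likelihood model in R 4.3.3, with 6 groups of treatment and time and the replicate number as a block, because each number marks an independent experiment. Deviations from the group means of same-numbered mock 1 h and 24 h libraries correlated at 0.092, 0.27, and 0.32, and those of other pairs at −0.27 to 0.0059. Adjusted *P* is Benjamini-Hochberg over all genes tested, and the SE was derived from the log2 fold change and its F statistic. CPM used TMM-scaled library sizes. A gene was called at adjusted *P* below 0.01 and a change of over 2-fold. The fit was tested on simulated counts. Figures were drawn with matplotlib 3.10.9.

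Genes named were the 12 largest rises and 12 largest falls among called genes with at least 10 mean counts in both groups, the same direction in all pairs, and a symbol, up to 4 called members of each list by adjusted *P*, up to 2 members not called with the highest mean CPM, *ACT2*, and *UBQ10*. Other genes were chosen after their values were seen. The gene lists and members were chosen with earlier results of these data known. Alternatives were no replicate block, DESeq2 size factors, DESeq2 1.42.0, limma-voom 3.58.1, no count filter, leaving out each replicate, the 6 compared libraries alone, and no organelle genes. Leaving out mock 24 h replicate 2 was added after the data were seen.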

Additional observations from a re-analysis of the deposited data

Results flagged for a closer look

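The change between 24 h and 1 h differed between flg22 and mock for 22 of the genes named here, by the interaction test of the same edgeR model at adjusted *P* below 0.01 and over 2-fold. Over all genes, 2.79% differed with the lower value after flg22 and 0.65% with the higher. Most of the named genes were called in mock, many of them higher, so the direction of these differences is not independent of how the genes were chosen. Each value below is the log2 change after flg22 minus that in mock. Of these, 20 were lower after flg22. Among wound, touch, and defense genes the difference was −4.85 for *LOX4*, −2.20 for *LOX3*, −2.52 for *WRKY6*, −2.24 for *WRKY40*, −2.09 for *PUB22*, and −1.72 for *ZAT12*. Among genes for conjugation and transport of small molecules it was −4.75 for *GSTU12*, −2.70 for *GSTU11*, −3.49 for *UGT73B5*, −2.93 for *UGT73B4*, −1.47 for *UGT73B2*, −1.34 for *UGT87A2*, and −1.65 for *ABCC7*. The wall gene *XTH18* was at −3.46, the root hair gene *COBL9* at −2.52, the cytokinin response gene *ARR3* at −2.92, the phenylpropanoid gene *4CL3* at −1.22, and the ammonium transporter gene *AMT1;1* at −1.02. The dehydrins *ERD10* and *COR47*, which were not called in mock, were at −1.48 and −1.35. The difference was higher after flg22 for *CYP71B22* (1.73) and *GASA6* (2.06), which both fell in mock. These values include the response to flg22 at 1 h. *LOX4*, for example, was at a mean of 137 CPM after 1 h of flg22 and 1.19 CPM in mock at that time.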

How the results depend on the processing

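Over all 11 alternatives no named gene reversed, and of 199 named genes with a call 0 to 62 lost it, while 0 to 2 of the other named genes gained one. Losses printed beside genes are only those without a replicate, a library, or the replicate block. Under limma-voom, 13 lost it (*LOX4*, *CYP94C1*, *CML37*, *CYP707A3*, *PRR5*, *LHCB1.1*, *NRT2.5*, *LSU1*, *HRA1*, *TT7*, *UGT75C1*, *GSTU11*, and *GSTU12*). The 6 compared libraries alone lost 17, among them *COBL9*, *GRXC9*, *ARR3*, *LOX3*, *PRR3*, *PRR5*, *NRT2.5*, and *PLDZ2*. DESeq2 lost *IRT1*, and the fit without the count filter lost *ALD1*. Without the replicate block, 963 genes were called higher and 567 lower between mock 24 h and 1 h (946 and 564 of them shared with the blocked fit), 32 and 301 differences between flg22 and mock, and 5 heat shock genes. DESeq2 called 905 lower differences between flg22 and mock, 1391 genes higher and 713 lower in mock, and limma-voom 1162 and 681. Leaving out 1 replicate or library gave 696 to 1234 genes higher and 428 to 700 lower in mock, 648 to 1136 higher and 594 to 1120 lower in flg22, 4 to 134 higher and 117 to 541 lower differences, 5 to 11 heat shock genes, 6 to 9 clock genes higher, and 10 to 18 antenna genes. The lowest counts in mock came without replicate 1, where 658 higher and 406 lower calls were shared. DESeq2 size factors moved the median log2 fold change of all genes from 0.016 to 0.037. At an adjusted *P* below 0.05, 1478 genes were called higher and 789 lower in mock. The cause of these differences was not tested. Depth limits genes under about 10 counts, and 14 genes called higher had at most 3 counts in every 1 h library, so their fold changes are not bounded by these data. Time after treatment, time of day, and age of the seedlings cannot be told apart.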

Other observations

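Several gene families outside the lists held many called members, and they were picked after their values were seen, so they are given as descriptions with no test. A family here holds the tested genes whose annotation symbol begins with its letters. Members filed under other symbols, such as *DOGT1* (UGT73C5), are left out. Of 14 tested ABCC transporter genes, which move conjugated compounds into the vacuole, 9 were called higher and 0 lower between 1 h and 24 h of mock, with a median log2 fold change of 1.16, where 5.84% of all genes were called higher and 3.38% lower. Without replicate 3, 5 ABCC genes were called, and without replicate 1, 6. *ABCC3* was at 49.5, 51.3, and 55.3 CPM at 1 h and 276, 113, and 479 CPM at 24 h (log2 fold change 2.296, adjusted *P* = 1.4e-05). Of 51 UGT glycosyltransferase genes, 23 were called higher and 2 lower (median 0.94), and of 26 tau-class glutathione transferase genes (GSTU), 7 were called higher and 0 lower (median 0.79). Without replicate 3, 4 GSTU genes were called, and without the replicate block 3. *GSTU12* had a mean of 0.545 CPM at 1 h and 2.36 CPM at 24 h, and *GSTU11* 1.01 and 3.01 CPM. Members of these families can be close copies, and reads they share were not counted. *GSTU12* was not called without replicate 2, without replicate 3, without mock 24 h replicate 2, and without the replicate block (adjusted *P* = 0.036, 0.014, 0.018, and 0.013). *GSTU11* was not called without replicate 2, without replicate 3, without mock 24 h replicate 2, and without the replicate block (adjusted *P* = 0.024, 0.038, 0.017, and 0.023).

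B-box transcription factor genes filed under a BBX symbol, several of which act in light signaling, moved in both directions. Of 16 tested with a BBX symbol, 6 were called higher and 3 lower, against 5.84% and 3.38% of all genes. Their median log2 fold change was 0.020, and without replicate 1 the calls were 3 and 2. *BBX31* was at 0.465, 0.0813, and 0.248 CPM at 1 h and 12.7, 6.18, and 7.35 CPM at 24 h (log2 fold change 5.05, adjusted *P* = 9.0e-07), while *BBX14* fell from 222, 182, and 195 CPM to 85.2, 82.9, and 108 CPM (log2 fold change −1.13, adjusted *P* = 2.7e-05). *BBX14* changed by less than 2-fold without replicate 1 (log2 fold change −0.99).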
